A study of Mus musculus with 6 samples.

Results

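The genes described here are Igf1, the receptors Igf1r and Igf2r, and the binding proteins Igfbp2, Igfbp3, Igfbp4, Igfbp5, Igfbp6 and Igfbp7, in injured mouse muscle with and without clodronate. They are 9 of the 32286 features listed and were all found in the files. They were picked by symbol, with earlier results of these data known. RNA of single cells was measured in the quadriceps of Cdh5-CreERT2:R26R-tdTomato mice, in which the endothelial Cdh5 promoter drives a tamoxifen-dependent recombinase that switches on a red reporter. All 6 mice carried these alleles and were injured with cardiotoxin, a snake venom toxin that destroys muscle fibres. The CLL group of 3 mice received clodronate liposomes into a vein, which phagocytes take up and die from, and the SHAM group of 3 mice received PBS liposomes. Both were given 1 day before and 2 days after injury, and muscle was taken 5 days after injury. Per the labels the ablation of circulating monocytes was partial, and each library came from its own mouse. The sources used here give no age, sex or dose.

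IGF-1 is a secreted growth factor that acts through the tyrosine kinase receptor encoded by Igf1r, upstream of the PI3K, AKT and mTOR pathway. The product of Igf2r, also known as the cation-independent mannose 6-phosphate receptor, carries IGF-2 and lysosomal enzymes into the cell and is not a growth signalling receptor. The IGF binding proteins hold IGFs in the extracellular space, where proteases such as PAPP-A release them. IGFBP7 binds IGFs only weakly. In injured muscle, macrophages and stromal cells are known sources of IGF-1, and myogenic cells respond to it by proliferation and growth.

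The libraries held 2081 to 25024 barcodes and 23873416 to 94841003 unique molecular identifiers (UMIs), and 46685 of 60282 barcodes were kept. Depth per cell was uneven, with medians of 1630 UMIs in CLL replicate 2 and 880 in SHAM replicate 3 against 2757 to 13820 in the other libraries, so results that change without this pair are named. In SHAM replicate 3, 81.5% of kept cells lay in clusters that the markers did not name, against 12.7% to 19.7% elsewhere. Pairs of libraries shared 2 to 97 barcodes, at most 1.06% of the smaller one. Cells fell into 28 clusters, of which 20 were named by fixed markers, and 5 classes had at least 20 cells in every library: fibroblast-like (with tenocyte-like cells), macrophage-like (with monocytes), dendritic-like, endothelial-like and myogenic-like. Macrophage-like cells held 10.0% ± 3.35 of UMIs in CLL and 27.0% ± 2.39 in SHAM (SD, n = 3), fibroblast-like cells 60.1% ± 4.14 and 25.7% ± 7.54, and endothelial-like cells 0.486% ± 0.267 and 10.7% ± 1.95. All values below are CPM (UMIs scaled to a common total per class), each class of a library being 1 value, and the test is edgeR's quasi-likelihood test with Benjamini-Hochberg adjustment over all genes of the class at 0.05.

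Of the 5 classes Igf1 was highest in fibroblast-like cells, and neither there nor in macrophage-like cells taken whole did its level differ between CLL and SHAM by more than the spread. In fibroblast-like cells Igf1 stood at 813, 778 and 837 CPM in the 3 CLL libraries and at 906, 804 and 908 CPM in the 3 SHAM libraries. These ranges overlapped, and the fitted log2 difference of CLL minus SHAM had a 95% interval of -0.26 to 0.26. In macrophage-like cells Igf1 was at 333, 343 and 362 CPM in CLL and at 353, 298 and 304 CPM in SHAM. The groups overlapped here too, with a log2 difference of 0.12 and an interval of -0.17 to 0.41.

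The share of cells with at least 1 Igf1 UMI gave the same picture once each cell was thinned to 1000 UMIs. It was 26.9% ± 0.696 in CLL and 26.1% ± 2.73 in SHAM for macrophage-like cells (SD, n = 3; two-sided exact permutation test, adjusted p = 0.80). For fibroblast-like cells it was 47.6% ± 0.875 and 49.0% ± 3.81 (adjusted p = 0.80, same exact test, whose smallest p with 3 against 3 is 0.10). Without thinning, the means were 73.9% and 76.0% for macrophage-like cells and 82.8% and 86.0% for fibroblast-like cells. The thinning left out 35 CLL and 289 SHAM macrophage-like cells, and 1662 and 128 fibroblast-like cells.

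Cells that should lack Igf1 were used as a guide to the level of free RNA. T/NK-like cells, with median depths of 4255 UMIs in CLL and 2087 in SHAM against 7658 and 2979 in macrophage-like cells, had an Igf1 UMI in 11.5% and 8.06% of cells of CLL replicates 1 and 3 and in 23.0%, 11.9% and 0% of cells of SHAM replicates 1, 2 and 3 after thinning. The 0% rests on 14 cells, and CLL replicate 2 had only 4 cells and gave no share. In CPM, T/NK-like cells reached 315 in SHAM replicate 1, against 353 in that library's macrophage-like cells. The macrophage-like level there thus stood little above the T/NK-like level. In that library macrophage-like cells held 23.2% of Igf1 UMIs and 26.4% of all UMIs. Neutrophil-like cells held 0.456% and 0.399%, and myofibre-like cells 0.787% and 0.588%, so both were higher in Igf1 than macrophage-like cells. That 315 also exceeds all dendritic-like, endothelial-like and myogenic-like values given below, and whether it is free RNA alone was not tested. In the other libraries T/NK-like cells were at 0 to 143 CPM, all below the macrophage-like values. Igf1 was at 36.1 to 177 CPM in dendritic-like, 73.4 to 147 in endothelial-like and 78.6 to 190 in myogenic-like cells. Within a library, myogenic-like cells were below T/NK-like cells in CLL replicates 1 and 3 and SHAM replicate 1 and above them in the others. With the order differing by library, these low levels are not read as expression.

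**Figure D1:**
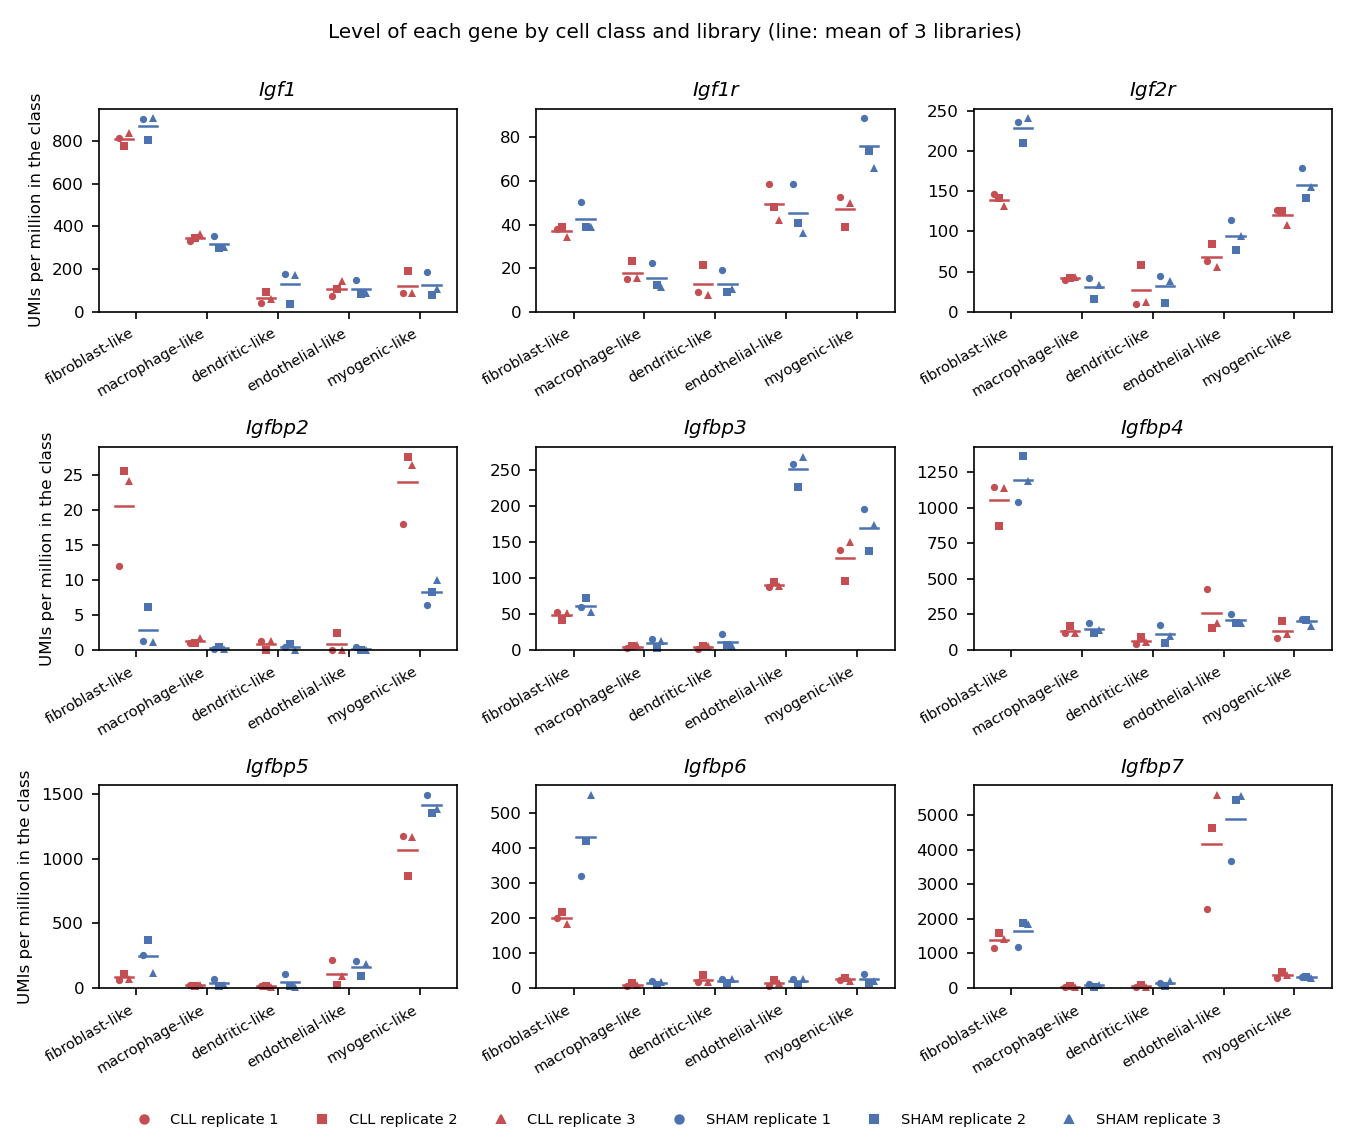
Level of the 9 genes in CPM (vertical axes, each from 0) by cell class (horizontal axis), with 1 point per library and a line at the mean of each group of 3. Igf1 is highest in fibroblast-like cells in all 6 libraries, Igfbp2 points of CLL lie above those of SHAM in fibroblast-like and myogenic-like cells, and Igfbp3 of CLL lies below SHAM in endothelial-like cells.

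Inside both the macrophage-like and the fibroblast-like class, the CLL effect on Igf1 differed between clusters. Among macrophage-like cells, cluster 11 is led by Gpnmb, Mmp12 and Spp1, genes of lipid-laden and phagocytic macrophages, cluster 12 by Cx3cr1, Ccr2 and MHC class II genes, and cluster 15 by F13a1, Mrc1 and Cd163, genes of resident-type macrophages. Igf1 in cluster 11 was at 408, 435 and 416 CPM in CLL and at 380, 348 and 327 CPM in SHAM. In cluster 12 it was at 154, 214 and 171 CPM in CLL and at 309, 241 and 267 CPM in SHAM. Thus each CLL library was above every SHAM library in cluster 11 and below every one in cluster 12. Taken alone, neither passed (log2 difference 0.27 ± 0.13 SE with adjusted p = 0.358 in cluster 11, and -0.56 ± 0.16 with adjusted p = 0.152 in cluster 12, edgeR). No member of 8 tested passed in either cluster, where 1.53% and 0.604% of all genes were called. At an unadjusted p under 0.05 there were 2 in cluster 11 and 1 in cluster 12, and DESeq2 called 0 in both. In SHAM replicate 1 the 309 CPM of cluster 12 lay below the T/NK-like level given above. In the other libraries cluster 12 lay above T/NK-like cells. The part of free RNA in these values was not tested.

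The difference between these clusters did pass: the CLL effect on Igf1 was 0.86 ± 0.13 higher on the log2 scale in cluster 11 than in cluster 12 (edgeR interaction with library as a block, adjusted p = 0.00142), where 0.525% of all genes were called. It passed in each fit without 1 library, at 0.81 to 0.93, and Igf1 was the only one of the 8 genes tested to do so in the fit on all libraries. In cluster 15 Igf1 was at 336, 357 and 386 CPM in CLL and at 478, 420 and 393 CPM in SHAM, again without overlap but with an adjusted p of 0.415 (edgeR). The make-up of the class changed as well. Cluster 15 held 59.2%, 60.0% and 47.0% of macrophage-like cells in CLL and 13.2%, 18.6% and 18.1% in SHAM, and cluster 12 held 14.9%, 16.3% and 20.7% against 56.7%, 63.1% and 52.1%.

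In fibroblast-like cells, cluster 7 is led by Cthrc1, Timp1 and Ccn5, genes of matrix-producing activated fibroblasts, and cluster 13 by Clec3b, Dlk1 and Cxcl14. Cluster 7 held 70.4%, 31.2% and 73.1% of the class in CLL and 17.1%, 5.21% and 10.3% in SHAM. Cluster 13 held 15.7%, 3.16% and 10.1% in CLL and 73.8%, 78.6% and 67.4% in SHAM. Cluster 3, led by Ndufa4l2 and Lox, held 60.6% of the class in CLL replicate 2 alone, so the whole-class values below are of different mixtures of clusters.

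Igf1 in cluster 7 was at 833, 811 and 853 CPM in CLL against 569, 628 and 529 CPM in SHAM. All CLL values were higher, with a log2 difference of 0.61 ± 0.15 (SE) that just missed the threshold (edgeR adjusted p = 0.0523; DESeq2 adjusted p = 6.15e-05). SHAM replicates 2 and 3 had only 20 and 28 cells in this cluster. In cluster 13 Igf1 was at 882, 763 and 866 CPM in CLL and at 1052, 849 and 1015 CPM in SHAM, which overlap. The CLL effect on Igf1 was 0.73 ± 0.12 higher in cluster 7 than in cluster 13 (edgeR interaction, adjusted p = 0.00614; 1.02% of all genes called), and it passed without each library in turn, at 0.65 to 0.86.

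**Figure D2:**
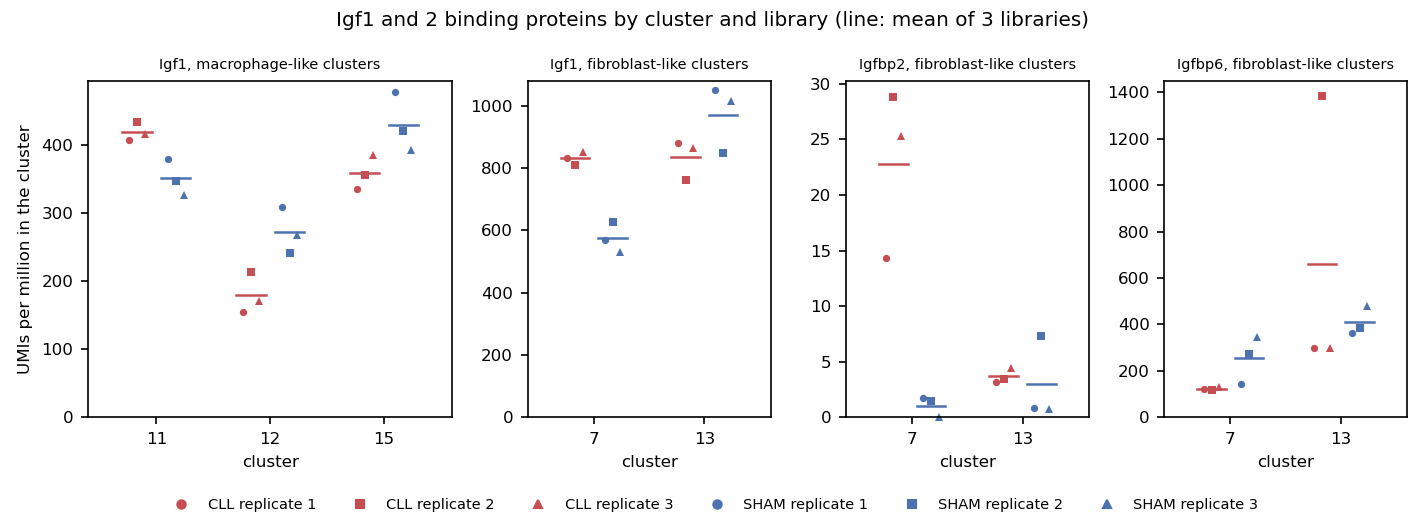
CPM of Igf1, Igfbp2 and Igfbp6 (vertical axes, each from 0) in macrophage-like clusters 11, 12 and 15 and fibroblast-like clusters 7 and 13, with 1 point per library and a line at each group's mean. Igf1 of CLL lies above SHAM in clusters 11 and 7 and below it in clusters 12 and 15, and the Igfbp6 value of 1383 in cluster 13 is that of CLL replicate 2.

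The cells that held the Igf1 RNA of a library also differed between the groups. Macrophage-like cells held 6.38%, 3.37% and 7.73% of all Igf1 UMIs in CLL and 23.2%, 18.9% and 20.4% in SHAM. Fibroblast-like cells held 80.9%, 79.1% and 80.8% in CLL and 44.0%, 69.7% and 48.1% in SHAM. Over all kept cells Igf1 was at 593, 636 and 587 CPM in CLL and at 402, 394 and 443 CPM in SHAM, a rise of 0.61 ± 0.12 on the log2 scale (edgeR adjusted p = 0.00495). At this level, 5 of the 9 genes passed where 36.4% of all genes did, and the same number did not overlap, as for 50.3% of all genes. Here a change in the number of cells of a type cannot be told apart from one in RNA per cell. Beside Igf1, Igfbp2 rose by 2.67 and Igfbp4 by 0.61, while Igfbp3 fell by 0.52 and Igfbp5 by 0.78. Igfbp4, Igfbp3 and Igfbp5 each lost the threshold in fits without 1 library (highest adjusted p = 0.0734, 0.0932 and 0.0768), and Igfbp3 also without CLL replicate 2 and SHAM replicate 3 together (adjusted p = 0.0754).

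**Figure D3:**
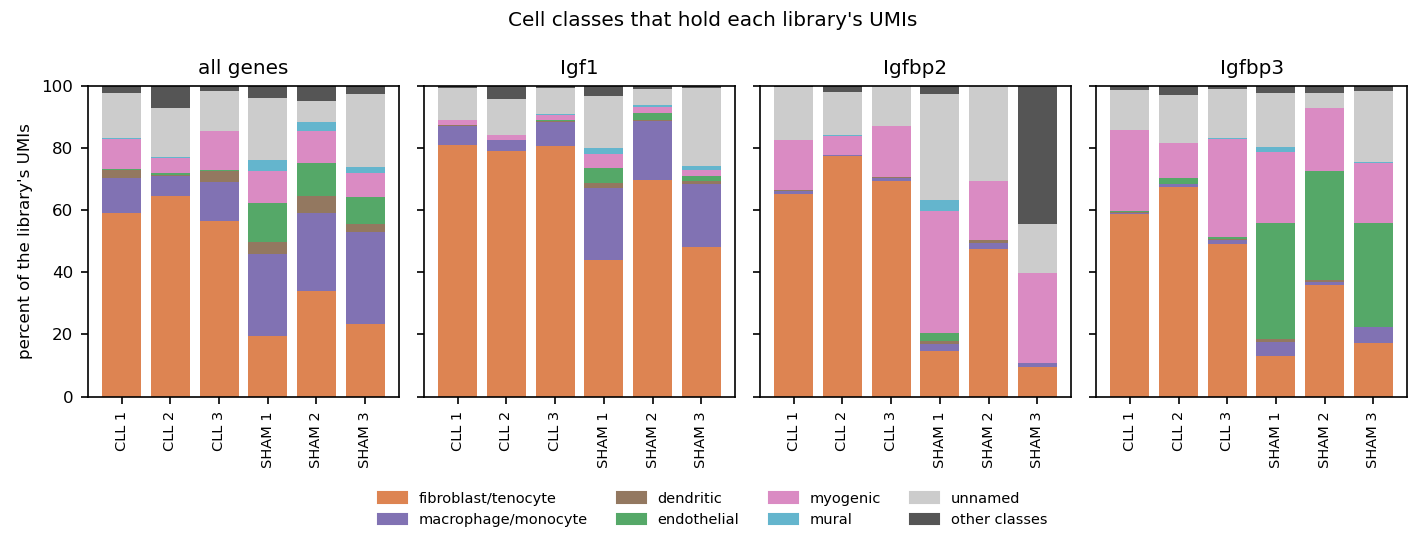
Percent of each library's UMIs (vertical axis, 0 to 100) held by each cell class, for all genes and for Igf1, Igfbp2 and Igfbp3, with 1 bar per library. The fibroblast-like share of Igf1 is near 80% in the 3 CLL libraries and 44.0% to 69.7% in SHAM, and the endothelial-like share of Igfbp3 is 33.5% to 37.1% in SHAM and at most 1.89% in CLL.

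Of the receptors, Igf2r fell in fibroblast-like cells of the CLL mice. It was at 147, 141 and 131 CPM in CLL and at 237, 211 and 242 CPM in SHAM, with no overlap (log2 difference -0.61 ± 0.11 SE, edgeR adjusted p = 0.0035). Fibroblast-like cells were the class where most members passed: 4 of 9, with 1 higher and 3 lower, where 25.4% of all genes were called. In 5 of 9 the groups did not overlap, as in 42.5% of all genes. The same count of calls came without CLL replicate 2 and SHAM replicate 3. The share of fibroblast-like cells with an Igf2r UMI at 1000 UMIs was 13.8%, 13.7% and 12.5% in CLL and 21.4%, 22.1% and 29.0% in SHAM. In cluster 13 it was at 203, 194 and 172 CPM in CLL and at 272, 241 and 273 CPM in SHAM, while in cluster 7 the groups overlapped at 128 to 143 and 122 to 175 CPM, and neither cluster passed. In macrophage-like cells Igf2r went the other way without passing, at 39.7, 42.3 and 43.5 CPM in CLL and at 41.3, 16.0 and 33.3 CPM in SHAM (log2 difference 0.47 ± 0.23, edgeR adjusted p = 0.264; 0.0456 with no filter). T/NK-like cells held Igf2r at 0 to 57.0 CPM, a range that holds all 6 macrophage-like values. Whether T/NK-like cells express Igf2r themselves was not tested.

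The CLL effect on Igf2r differed between macrophage-like and fibroblast-like cells by 1.16 ± 0.24 on the log2 scale (edgeR interaction, adjusted p = 0.0404; 2.68% of all genes called). That call was lost without CLL replicate 1, 2 or 3 (adjusted p = 0.146, 0.0826 and 0.157) and without SHAM replicate 3 (0.110), with sizes of 0.90 to 1.36 over the 6 fits. Igf2r lies at chr17:12682406-12769664 on the minus strand (GRCm38, GENCODE M21), and Airn, a noncoding RNA, overlaps its start on the other strand. Among the 5 members called in a class, its upstream window and that of Igfbp2 are shown because they hold the motif below, and that of Igfbp3 as one that does not. The windows of Igfbp5 and Igfbp6, which were also called, hold none either. That of Igfbp7, which edgeR called in no class, holds the motif in 1 place. Each window was taken from RefSeq (GRCm38.p6) and covers the 250 bases before the gene's start. Matches to GCGTG were not marked. Capitals mark matches to ACGTG on either strand, a form of the core of the hypoxia response element. Inside CACGTG it is read on both strands, and the matches overlap. The motif was chosen with the results known, and 16.6% of 32851 such windows hold it. The Igf2r window, chr17:12769707-12769956 on the minus strand, holds CACGTG in 2 places.
Igf2r: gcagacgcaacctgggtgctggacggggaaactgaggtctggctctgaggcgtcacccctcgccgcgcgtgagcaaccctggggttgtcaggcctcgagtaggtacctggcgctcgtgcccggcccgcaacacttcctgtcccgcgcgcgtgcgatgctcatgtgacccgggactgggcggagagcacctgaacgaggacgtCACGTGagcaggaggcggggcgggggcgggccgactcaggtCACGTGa

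Igf1r, the signalling receptor, was lowest in macrophage-like (11.5 to 23.3 CPM) and dendritic-like cells (7.64 to 21.3 CPM). It was at 37.8, 38.7 and 34.4 CPM in CLL and at 50.3, 38.9 and 38.8 CPM in SHAM in fibroblast-like cells, a gap no larger than the spread within SHAM. T/NK-like cells reached 71.7 CPM. In myogenic-like cells it was at 52.5, 38.7 and 50.03 CPM in CLL and at 89.1, 73.8 and 65.8 CPM in SHAM. All CLL values were lower there, but the difference did not pass (log2 -0.54 ± 0.16, edgeR adjusted p = 0.0696; with no TMM scaling -0.69, adjusted p = 0.0414). The Pax7-expressing cluster 2, led by Myf5 and Cdh15 and made of the less mature myogenic-like cells, had the same order, at 52.7, 46.3 and 50.6 CPM in CLL and at 93.9, 71.1 and 70.01 CPM in SHAM.

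Igfbp2 had the largest difference of the 9 genes. This binding protein is best known from liver and adipose tissue and carries an integrin-binding motif. In fibroblast-like cells it was at 12.04, 25.6 and 24.2 CPM in CLL and at 1.26, 6.18 and 1.10 CPM in SHAM, from 426, 865 and 909 UMIs against 17, 48 and 8. Every CLL library exceeded every SHAM library, and the log2 difference was 3.05 ± 0.50 (edgeR adjusted p = 0.00192). In myogenic-like cells it was at 18.0, 27.7 and 26.5 CPM in CLL and at 6.45, 8.30 and 9.99 CPM in SHAM, again without overlap (log2 difference 1.74 ± 0.26, edgeR adjusted p = 0.00672). It was the only member of 9 to pass in myogenic-like cells, where 6.31% of all genes were called, and 2 passed without CLL replicate 2 and SHAM replicate 3. The groups did not overlap for 4 of 9, as for 31.5% of all genes. T/NK-like cells held Igfbp2 at 2.38 CPM in CLL replicate 1 and at 0 in the other libraries.

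Within cluster 7 of the fibroblast-like cells Igfbp2 rose as well, at 14.3, 28.8 and 25.3 CPM in CLL against 1.71, 1.46 and 0 CPM in SHAM (log2 difference 4.26 ± 0.52, edgeR adjusted p = 0.00193). Igfbp2 was the only one of 9 to pass there, where 2.03% of all genes were called. The SHAM values rest on 6, 1 and 0 UMIs, so the fold is poorly bounded. In cluster 13 the values overlapped, at 3.20, 3.46 and 4.40 CPM in CLL and at 0.882, 7.33 and 0.791 CPM in SHAM. The effect in cluster 7 exceeded that in cluster 13 by 2.96 ± 0.63 (edgeR interaction, adjusted p = 0.0357), a call lost without CLL replicate 1, 2 or 3 and without SHAM replicate 2, at adjusted p of 0.0686 to 0.261. In the tenocyte-like cluster 8, led by Tnmd, Chad and Kera, Igfbp2 was at 0, 66.6 and 57.9 CPM in CLL and at 2.87 to 3.17 CPM in SHAM. It was thus high in CLL replicates 2 and 3 there, from 67 and 60 UMIs, and was not tested.

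In myogenic-like cells Igfbp2 was at 20.8, 35.4 and 28.5 CPM in CLL and at 6.86, 10.2 and 3.21 CPM in SHAM within cluster 2. In cluster 18, led by Myog and Myh3 of differentiating cells, it was at 7.39, 14.4 and 21.5 CPM in CLL and at 4.58, 0 and 34.0 CPM in SHAM, which overlap. Cluster 18 held 60 of 330, 298 of 614 and 126 of 540 myogenic-like cells in CLL and 197 of 1754, 22 of 129 and 13 of 104 in SHAM. Summed myofibre markers of the class were at 2899 to 6981 CPM in CLL and 1462 to 2072 CPM in SHAM, and their part in the result was not tested. In macrophage-like cells Igfbp2 rested on 7, 3 and 14 UMIs in CLL and 3, 2 and 1 in SHAM and was not tested.

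Igfbp2 lies at chr1:72824503-72852474 on the plus strand, and Igfbp5 at chr1:72857932-72874884 on the minus strand (GRCm38, GENCODE M21). Their 3' ends face each other across 5457 bases with no gene between. These neighbours moved in opposite directions in fibroblast-like cells. RefSeq gives Igfbp2 a pair of start sites. The window of the first, chr1:72824230-72824479 on the plus strand, holds CACGTG in 1 place, and that of the other, chr1:72825137-72825386, holds no ACGTG. The first is shown.
Igfbp2: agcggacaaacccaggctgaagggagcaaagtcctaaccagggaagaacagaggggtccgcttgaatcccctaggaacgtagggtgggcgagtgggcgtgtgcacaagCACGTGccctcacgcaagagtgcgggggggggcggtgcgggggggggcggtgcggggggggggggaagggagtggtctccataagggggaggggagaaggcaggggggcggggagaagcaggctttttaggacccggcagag

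Igfbp5 and Igfbp6 fell in fibroblast-like cells taken whole. Igfbp5, which binds matrix and is abundant in myogenic and mural cells, was at 59.7, 111 and 72.8 CPM in CLL and at 256, 368 and 116 CPM in SHAM (log2 difference -1.51 ± 0.35, edgeR adjusted p = 0.0115). The gap was narrow between CLL replicate 2 and SHAM replicate 3, and without CLL replicate 3 the adjusted p was 0.0606. Igfbp6, which prefers IGF-2 over IGF-1, was at 201, 217 and 183 CPM in CLL and at 321, 418 and 551 CPM in SHAM (log2 difference -0.997 ± 0.19, edgeR adjusted p = 0.00391). Summed myogenic markers in these cells overlapped between groups, at 202 to 244 CPM in CLL and 191 to 229 CPM in SHAM. Other summed markers separated the groups. Mural markers were at 1779 to 2364 CPM in CLL and 700 to 1138 CPM in SHAM, although of 13 tested 2 rose and 8 fell. Macrophage markers were at 193 to 262 and 358 to 844 CPM, endothelial markers at 86.6 to 99.9 and 114 to 164 CPM, and fibroblast markers at 40056 to 43538 and 48889 to 52337 CPM. Their part in these results was not tested.

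By cluster, Igfbp6 was lower in cluster 7 than in cluster 13 within every library, at 122, 117 and 129 CPM in CLL and at 145, 271 and 345 CPM in SHAM for cluster 7, and at 299, 1383 and 297 CPM and at 365, 384 and 481 CPM for cluster 13. The CLL and SHAM values of Igfbp6 did not overlap in cluster 7 (log2 difference -0.96 ± 0.25, edgeR adjusted p = 0.0659; DESeq2 adjusted p = 0.028) and overlapped in cluster 13. For Igfbp5 the values overlapped in both. No member passed in cluster 13, where 3.46% of all genes were called, 3 members had an unadjusted p under 0.05 and DESeq2 called 0. In the tenocyte-like cluster 8 Igfbp5 was at 196, 108 and 97.4 CPM in CLL and at 434, 750 and 241 CPM in SHAM (log2 difference -1.78 ± 0.35, edgeR adjusted p = 0.0174; 2.33% of all genes called). That call was lost without CLL replicate 2 (adjusted p = 0.136), without CLL replicate 3 (0.152) and with DESeq2 (0.0946). The Pi16-expressing cluster 20, too small to test, had the highest Igfbp6 of the class, at 1046 to 1997 CPM in CLL and 1428 to 3326 CPM in SHAM.

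Igfbp3, the main carrier of IGF-1 in serum, which endothelial cells also make, fell in endothelial-like cells. It was at 88.0, 93.9 and 88.9 CPM in CLL and at 259, 226 and 269 CPM in SHAM. The groups were far apart relative to their spread (log2 difference -1.31 ± 0.22, edgeR adjusted p = 0.0138), and it was the only one of 8 members tested to pass, where 0.384% of all genes were called. It was also the only member whose groups did not overlap there, as for 18.9% of all genes. In T/NK-like cells Igfbp3 was at 0 to 4.77 CPM in CLL and 20.7 to 69.7 CPM in SHAM. The CLL endothelial-like values rest on 18, 39 and 19 UMIs from 39, 200 and 53 cells, against 549 to 2269 UMIs in SHAM. The call was lost without CLL replicate 3 (adjusted p = 0.0863), without CLL replicate 2 and SHAM replicate 3 together (0.127), at the finer clustering (0.19) and with no doublets removed (0.0625), while the log2 difference stayed between -1.06 and -1.39.

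The few endothelial-like cells of the CLL mice differed in other markers too. Cdh5, which defines endothelium, was at 895, 1191 and 940 CPM in CLL and at 1561, 1499 and 1353 CPM in SHAM, while summed endothelial markers were at 5884 to 7379 and 7073 to 7887 CPM with none of 15 past the threshold. Summed lymphatic markers ran from 24.1 to 2411 CPM in CLL, the highest in replicate 1, and from 47.0 to 340 CPM in SHAM. Summed mural markers were at 431 to 678 CPM in CLL and 1513 to 2110 CPM in SHAM, and macrophage markers at 284 to 611 and 1508 to 2585 CPM. The part of these cells in the Igfbp3 result was not tested. In mural-like cells themselves Igfbp3 was at 5.62, 8.83 and 99.7 CPM in CLL and at 41.1, 1.48 and 11.8 CPM in SHAM.

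The fall of Igfbp3 was larger in endothelial-like than in fibroblast-like cells by 1.22 ± 0.25 on the log2 scale (edgeR interaction, adjusted p = 0.0168; 3.38% of all genes called). The call was lost without CLL replicate 1, 2 or 3 (adjusted p = 0.0933, 0.0568 and 0.138) and without SHAM replicate 3 (0.108), with sizes of -0.92 to -1.30. In fibroblast-like cells Igfbp3 was at 52.2, 41.3 and 51.1 CPM in CLL and at 59.2, 72.1 and 52.0 CPM in SHAM, which overlap. Of all Igfbp3 UMIs, endothelial-like cells held 0.573%, 1.89% and 0.488% in CLL and 37.1%, 35.2% and 33.5% in SHAM. Igfbp3 lies at chr11:7206086-7213923 on the minus strand. Its window, chr11:7213924-7214173 on the minus strand, holds no ACGTG, though it does hold GCGTG.
Igfbp3: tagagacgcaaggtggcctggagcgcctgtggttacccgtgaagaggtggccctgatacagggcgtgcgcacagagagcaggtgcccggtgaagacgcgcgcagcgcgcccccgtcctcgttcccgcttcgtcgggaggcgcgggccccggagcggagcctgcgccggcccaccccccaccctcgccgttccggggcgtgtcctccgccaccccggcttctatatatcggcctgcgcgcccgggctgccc

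**Figure D4:**
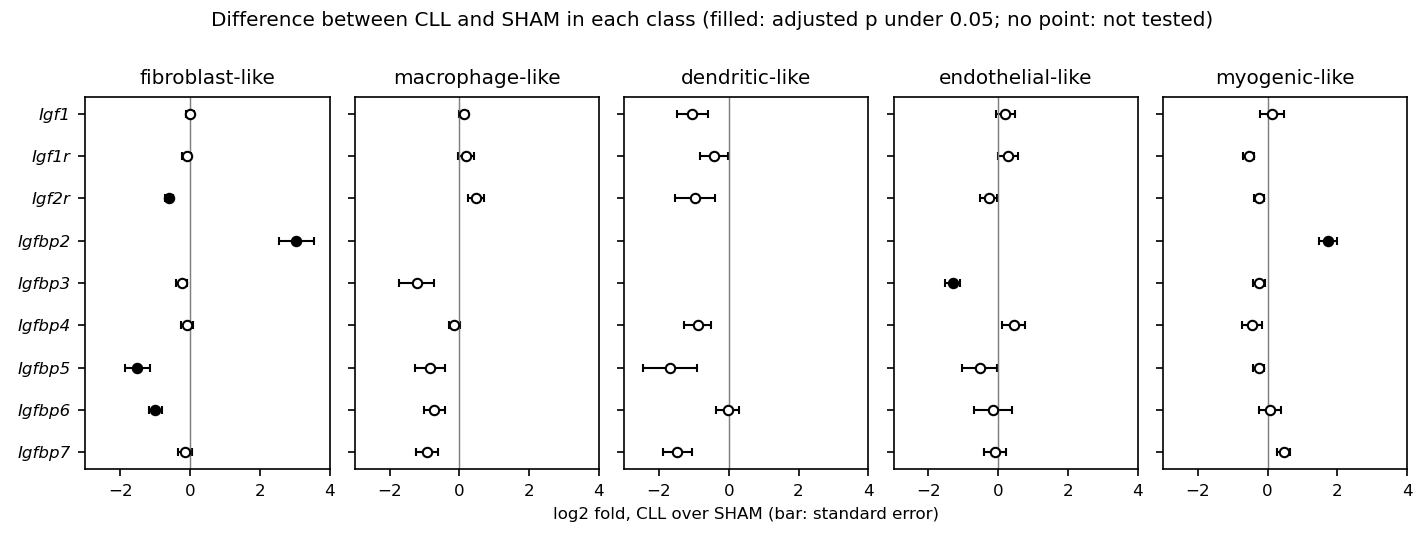
Log2 difference of CLL over SHAM (horizontal axes) with its standard error (bars) for the 9 genes (rows) in each of 5 classes (panels), with filled points for an adjusted p under 0.05 in edgeR. Filled points are Igfbp2 in fibroblast-like and myogenic-like cells, Igf2r, Igfbp5 and Igfbp6 in fibroblast-like cells and Igfbp3 in endothelial-like cells.

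Igfbp4 and Igfbp7 passed in none of the 5 classes in edgeR. Igfbp4, whose cleavage by PAPP-A frees IGF near the cell, was at 1146, 870 and 1136 CPM in CLL and at 1037, 1361 and 1187 CPM in SHAM in fibroblast-like cells, which overlap. In macrophage-like cluster 15 it was at 166, 222 and 173 CPM in CLL and at 340, 226 and 303 CPM in SHAM (log2 difference -0.59 ± 0.15, edgeR adjusted p = 0.0492; 4.48% of all genes called). That call at the edge of the threshold was lost in 4 of 6 fits without 1 library, without CLL replicate 2 and SHAM replicate 3 together (adjusted p = 0.099) and with a replicate block (0.143), and T/NK-like cells reached 226 CPM. Igfbp7, a marker of activated vessels, was highest in endothelial-like cells, at 2294, 4640 and 5586 CPM in CLL and at 3685, 5441 and 5539 CPM in SHAM, where the spread inside each group exceeded the gap. In mural-like cells, with at least 10 cells in every library, Igfbp7 was at 3259 to 4638 CPM in CLL and 2431 to 3946 CPM in SHAM. Igfbp5 there was at 3515, 1457 and 2820 CPM in CLL and at 1945, 1661 and 955 CPM in SHAM, and no gene of any kind passed in mural-like cells (0.0% of 5231 genes tested). No member passed in myofibre-like cells (0.0% of all genes called) or glial-like cells (0.335%) either.

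No member passed in macrophage-like cells, where 4.86% of all genes were called, nor in dendritic-like cells, where 3.7% were. In neither class did a member separate the groups without overlap, against 23.9% and 21% of all genes. Of 8 tested in macrophage-like cells 3 had an unadjusted p under 0.05 in edgeR, and DESeq2 called 1, Igfbp7. Of 7 tested in dendritic-like cells 4 had an unadjusted p under 0.05, and DESeq2 again called 1, Igfbp7. Igfbp7 was at 27.2, 57.9 and 41.1 CPM in CLL macrophage-like cells and at 103, 35.6 and 98.4 CPM in SHAM, and at 212, 0 and 319 CPM and at 298, 33.8 and 221 CPM in T/NK-like cells. Igfbp3, Igfbp5 and Igfbp6 in both myeloid classes were likewise within the T/NK-like range of 0 to 69.7, 0 to 523 and 0 to 84.1 CPM. These ranges pool libraries, and within a library macrophage-like cells could be the higher. In CLL replicate 3, for example, they held 1.33% of Igfbp3 UMIs, and T/NK-like cells held 0%. The T/NK-like cells there numbered 63 and held 0.464% of all UMIs, against 12.5% in macrophage-like cells. So few UMIs cannot settle which class was higher.

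The order of the classes was set by gene. Among the 5 tested classes, Igf1, Igf2r, Igfbp4 and Igfbp6 were highest in fibroblast-like cells in the mean of 6 libraries. Igf1r, Igfbp2 and Igfbp5 were highest in myogenic-like cells, and Igfbp3 and Igfbp7 in endothelial-like cells. For Igfbp3 this held in the 3 SHAM libraries, while in the 3 CLL libraries myogenic-like cells were higher. Classes below the limit of 20 cells were left out of this order. Of these, mural-like cells had higher Igfbp5 in CPM than myogenic-like cells in all libraries but SHAM replicate 3. In SHAM replicate 3, glial-like cells held 44.6% of Igfbp2 UMIs and 1.37% of all UMIs. Igf1 was at 841 ± 54.6 CPM in fibroblast-like, 332 ± 26.2 in macrophage-like and 122 ± 51.4 in myogenic-like cells (SD, n = 6), with each step in the same direction in 6 of 6 libraries. Igfbp5 was at 1240 ± 222 CPM in myogenic-like and 164 ± 122 in fibroblast-like cells, and Igfbp6 at 315 ± 146 in fibroblast-like and 24.7 ± 9.34 in myogenic-like cells, both in 6 of 6 libraries. Of 36 steps between neighbouring classes over the 9 genes, 20 had the smallest p that 6 libraries allow in a two-sided exact sign-flip permutation test, 0.0312, which became 0.0563 after adjustment, so none passed. Neighbours that did not differ beyond their spread include endothelial-like and myogenic-like cells for Igf1r (47.4 ± 9.58 and 61.6 ± 18.3 CPM). For Igfbp3 the same neighbours stood at 171 ± 89.4 and 149 ± 34.5 CPM, means that pool groups of opposite order.

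Across the 30 class-by-library sums, the genes most like Igf1 among 7563 compared were Rnase4 (Pearson's r = 0.95), Steap3 (0.91) and Rac3 (0.90). Those most like Igfbp2 were Atp5g1 (0.86), Tnfrsf12a (0.86) and Ccn5 (0.85), and those most like Igfbp3 were Mprip (0.97), Dmwd (0.95) and Arhgap29 (0.95). Between members, Igf1r and Igfbp3 were closest (0.89), while Igf1 was closest to Igfbp4 (0.79). The points share libraries, depth and classes, so these are descriptions.

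The rest of the pathway was taken from a list of 60 genes. In fibroblast-like cells 54 were tested, of which 8 rose and 17 fell (46.3%, against 25.4% of all genes), with a median log2 difference of -0.25 against -0.03 over all genes. Without CLL replicate 2 and SHAM replicate 3 the count was 3 up and 10 down, and without CLL replicate 1 it was 5 up and 10 down. Igf2, the second ligand, fell from 412 ± 87.9 to 34.9 ± 12.98 CPM (log2 difference -3.45, edgeR adjusted p = 6.4e-05). All 4 listed proteases and inhibitors that passed rose, among them Pappa, from 18.7 ± 1.69 to 27.5 ± 5.18 CPM (edgeR adjusted p = 0.0106; 0.051 without CLL replicate 2 and SHAM replicate 3). Eif4ebp1, the translation repressor that mTOR switches off, rose from 92.4 ± 9.91 to 154 ± 8.26 CPM, with Grb14 and Rps6kb1 also higher. Of the growth hormone arm 5 of 6 fell, led by Ghr, the growth hormone receptor, from 80.5 ± 8.08 to 46.9 ± 3.06 CPM (edgeR adjusted p = 0.00256). Igf2bp3 and Pik3ip1 also fell. These falls stand beside the shift from cluster 13 to cluster 7, and the part of that shift was not tested.

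In myogenic-like cells 2 of 51 listed genes rose and 4 fell, where 6.31% of all genes were called. The count of 6 became 2 without CLL replicate 1 or 3 or SHAM replicate 2 or 3, and 3 without SHAM replicate 1. Fbxo32, a muscle atrophy ubiquitin ligase and FOXO target, rose from 29.7 ± 2.97 to 56.7 ± 4.86 CPM (edgeR adjusted p = 0.00513), and kept its call without each library in turn. Eif4ebp1 rose from 145 ± 17.4 to 218 ± 38.0 CPM, a call lost in 5 of those 6 fits (highest adjusted p = 0.13). The myofibre markers given above, and mural markers at 3625 to 4994 CPM in CLL and 1935 to 2066 CPM in SHAM, separate the groups in these cells. The mural list shares Des with the myogenic list, so this sum includes a marker of the class itself. The part of these markers was not tested. Igf2 fell from 329 ± 39.7 to 128 ± 10.8 CPM (edgeR adjusted p = 0.00513), with Irs2, Cish and Igf2bp3 also lower. In macrophage-like cells 2 of 48 fell, where 4.86% of all genes were called: Igf2, at 14.6 to 34.0 CPM in SHAM against 63.9 to 159 CPM in that group's T/NK-like cells, and Fbxo32, from 74.9 ± 7.63 to 39.1 ± 4.47 CPM (edgeR adjusted p = 0.00891). Without CLL replicate 2 and SHAM replicate 3 the macrophage-like count was 0, and Fbxo32 also lost its call without CLL replicate 1 (adjusted p = 0.0809) or 3 (0.0623). In dendritic-like cells Lrp1 and Igf2 fell, 2 of 38 tested, where 3.7% of all genes were called. The count was 0 without CLL replicate 1 or 3 or SHAM replicate 1, at both other resolutions and with no doublets removed, 1 without SHAM replicate 3, and 6 without SHAM replicate 2. Igf2 in dendritic-like cells was at 21.1 to 45.7 CPM in SHAM, in each library below T/NK-like cells. Summed macrophage markers of dendritic-like cells were at 1923 to 2359 CPM in CLL and 5953 to 9584 CPM in SHAM, with 13 of 17 called lower. Their part in these falls was not tested. In endothelial-like cells 0 of 45 listed genes passed in edgeR, 0 had an unadjusted p under 0.05, and DESeq2 called 0.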

How the data were processed

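Single-cell RNA was measured in 6 libraries (3 CLL, 3 SHAM), each of 1 mouse per the labels. The deposited values are raw counts of UMIs per gene and barcode. The file headers name Cell Ranger 6.1.2, and the submitters' processing notes name mm10. How the deposited barcodes were selected is unstated. Barcodes with under 300 genes or over 15% mitochondrial UMIs were removed, then 7032 as doublets (Scrublet's highest scores, 0.8% per 1000 barcodes). Clustering used scanpy 1.11.5 (2000 variable genes without the 9 members, 30 components, 15 neighbours, Leiden at resolution 1). A cluster was named from 16 fixed marker lists, where it had at least 100 cells and at least 4 detected markers and stood 0.5 above the next list. These 3 limits were set after seeing the clusters. Counts summed per library and class or cluster, with at least 20 cells in every library, were tested with edgeR 4.0.16 (TMM, filterByExpr). The filter removed 1 member in macrophage-like, 1 in endothelial-like and 2 in dendritic-like cells. SE is the size of the log2 difference over the root of F. DESeq2 1.42.0 was an alternative. The edgeR script was tested on simulated data. Named genes were the 9 members and, from the pathway list, those past the threshold, up to 4 per class and direction by p. Members and lists were chosen with earlier results of these data known. Replicate mice give the error, that of the printed intervals of log2 differences included.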

Additional observations from a re-analysis of the deposited data

Results flagged for a closer look

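Some CLL effects differed between cell populations by a direct test, the edgeR interaction with library as a block. The effect on Igf1 was 0.86 ± 0.13 higher on the log2 scale in macrophage-like cluster 11 than in cluster 12, and 0.73 ± 0.12 higher in fibroblast-like cluster 7 than in cluster 13. The effect on Igfbp2 was 2.96 ± 0.63 higher in cluster 7 than in cluster 13. The effect on Igf2r was 1.16 ± 0.24 higher in macrophage-like than in fibroblast-like cells, and that on Igfbp3 was -1.22 ± 0.25 in endothelial-like relative to fibroblast-like cells. The calls on Igfbp2, Igf2r and Igfbp3 were each lost in 4 of 6 fits without 1 library, and macrophage-like Igf2r lay within the T/NK-like range. In SHAM replicate 1, Igf1 of cluster 12 also lay below that of T/NK-like cells. The cluster comparisons were chosen after seeing the data.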

How the results depend on the processing

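Of 14 called values 0 changed sign and 7 lost the threshold under at least 1 alternative, while of 86 uncalled values 39 changed sign and 24 passed under at least 1. Counts of members past the threshold moved as follows. With no filter on low counts there were 6 in macrophage-like cells, 5 in dendritic-like cells, 5 in cluster 7, 2 in clusters 8, 13, 11 and 15, and 1 in cluster 12. DESeq2 called 1 in macrophage-like and 1 in dendritic-like cells, 3 in cluster 7 and 0 in cluster 8. Without CLL replicate 2 and SHAM replicate 3 there were 0 in endothelial-like cells, 2 in myogenic-like cells, 2 in cluster 7 and 0 in cluster 15. Without TMM there were 2 in myogenic-like cells, 2 in cluster 7 and 0 in cluster 15. Myogenic-like cells had 2 at resolutions 0.5 and 2, endothelial-like cells 0 at resolution 2 and with no doublets removed, and dendritic-like cells 3 with members among the variable genes. Leaving out 1 library gave 0 to 3 in macrophage-like and dendritic-like cells, 0 to 1 in endothelial-like, 3 to 4 in fibroblast-like and 1 to 2 in myogenic-like cells, 2 to 4 over all kept cells, 1 to 4 in cluster 7, 0 to 2 in cluster 8 and 0 to 1 in clusters 13, 12 and 15. The interactions then ran from 0.90 to 1.36 for Igf2r, from -1.30 to -0.92 for Igfbp3 and from 1.97 to 5.08 for Igfbp2. The Igf1 share difference turned from 0.82 points in macrophage-like cells to -1.07 at 2000 UMIs and -2.17 unthinned, and from -1.35 points in fibroblast-like cells to 1.12 at 2000 UMIs. The cause was not tested.

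Same-numbered CLL and SHAM libraries did not deviate together in every class (correlations of -0.184 to 0.215, against -0.205 to 0.249 for other pairs), so the numbers do not pair them. With a replicate block the count in cluster 15 fell from 1 to 0 and no other member count moved by over 1.5 times. Listed pathway genes past the threshold then numbered 0 in dendritic-like and 2 in myogenic-like cells. In endothelial-like cells each CLL library correlated best with its own number (0.145, 0.215 and 0.072), a hint from the data and not the design. Depth limits Igfbp2 outside fibroblast-like and myogenic-like cells, and Igfbp3, with 18 to 39 UMIs, in CLL endothelial-like cells.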
